A study of Rattus norvegicus with 54 samples.

Results

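Igha, the gene for the heavy chain of immunoglobulin A, and 6 other genes of B cells and plasma cells were followed in the left ventricle of rats with a sham operation, an untreated myocardial infarction or an infarction covered with a cell sheet. The 7 genes (Igha, Ighm, Jchain, Mzb1, Cd79a, Cd79b and Ms4a1) were matched to the symbols of the count tables, where 6 of the 7 were found among 40319 genes. Ighm, the heavy chain gene of immunoglobulin M, was not analysed here because no row carries that symbol. Igha was selected on these data, from the infarct and border zone counts of each animal summed. Only genes that passed edgeR at an adjusted p under 0.05, with a minimum average level and no overlap between the groups, were ranked. Among these, Igha had the highest rise in the cell sheet hearts against the untreated MI hearts (log2 fold change 4.58, SE 0.53). The gene next to it was Adrb3, the beta 3 adrenergic receptor of fat cells, at 4.37, and the one after that was Adra2a at 3.35. These values chose the gene and are not evidence for it.

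The animals were female F344/NJcl-rnu/rnu rats, an athymic strain, operated on at 8 weeks of age and sampled 1 week after surgery. The Sham group had no coronary ligation, the MI group had a ligated left anterior descending artery and no treatment, and the MI+Cell Sheet group had the same ligation and received a sheet of human smooth muscle cells, made from mesenchymal stem cells, layered with human endothelial progenitor cells. Each of the 3 groups had 6 animals, and 1 library was made from each zone (infarct, border and remote) of each animal, 54 in all. In sham hearts the zone names stand for the matching regions of a ventricle without an infarct. The rnu/rnu mutation takes away the thymus and with it most T cells, which are needed for many antibody responses, while B cells remain, so the animals are a limited model of antibody production. The tables hold whole-number read counts with 12699204 to 23397754 counts on genes per library. The labels number the libraries of a group as technical replicates and the study describes separate animals, so p-values measure the spread between these libraries.

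B cells carry an antibody on their surface as part of the B cell receptor, in which Cd79a and Cd79b are the signalling subunits, and Ms4a1 (CD20) is a membrane protein of mature B cells that is lost when they become plasma cells. Plasma cells secrete antibody in bulk. Jchain encodes the small joining chain that links immunoglobulin A into dimers and immunoglobulin M into pentamers, and Mzb1 is a chaperone of the endoplasmic reticulum that assists antibody assembly. An antibody chain is made from a rearranged variable (V) segment and a constant region, so V segment reads and constant region reads come from the same transcripts.

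The 300 bases around the start of a gene were at hand for 2 of the 7 genes, Jchain and Cd79a, in the RefSeq promoter table of the GRCr8 build, and they are shown because both genes were higher in the border than in the remote zone of the cell sheet hearts. Each window runs from 250 bases before the start to 50 after it. Capitals mark ATTTGCA in Jchain, which is most of the octamer that the Oct factors of B cells bind, and CAGGAAGT in Cd79a, a core that Ets family factors bind. The motifs were chosen after the sequences had been seen. The Jchain window lies at chr14:19822726-19823025 on the plus strand and the Cd79a window at chr1:89621210-89621509 on the plus strand.
Jchain: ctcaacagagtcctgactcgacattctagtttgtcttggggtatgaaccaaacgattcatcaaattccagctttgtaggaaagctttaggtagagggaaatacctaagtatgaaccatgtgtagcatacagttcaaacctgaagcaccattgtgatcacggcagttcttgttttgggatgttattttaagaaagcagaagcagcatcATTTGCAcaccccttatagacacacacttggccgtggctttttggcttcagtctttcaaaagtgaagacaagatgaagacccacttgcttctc
Cd79a: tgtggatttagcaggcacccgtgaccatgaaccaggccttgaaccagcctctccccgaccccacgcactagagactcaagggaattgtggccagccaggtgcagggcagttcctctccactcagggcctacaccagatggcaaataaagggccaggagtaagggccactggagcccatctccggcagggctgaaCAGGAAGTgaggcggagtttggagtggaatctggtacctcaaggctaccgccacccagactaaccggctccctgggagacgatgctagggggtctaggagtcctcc
Of the 33469 promoter windows of the table, 4.05% hold ATTTGCA or its reverse complement and 3.05% hold CAGGAAGT or its reverse complement. The full octamer ATTTGCAT, which contains the shorter motif, is in 1.78% of the windows and in neither of these. No match of CAGGAAGT was found in the Jchain window and none of ATTTGCA in the Cd79a window.

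One sham animal was set apart after the values had been seen. In the 3 libraries of sham replicate 5, Cd3e, a subunit of the T cell receptor complex, had 1645 to 2587 counts, against at most 49 in the other 15 sham libraries. Cxcl13, the chemokine that draws B cells into follicles, had 6173 to 7836 counts there against at most 228. The summed level of a 10-gene myeloid list was 7513 to 12870 CPM (counts scaled to a common library size) in this animal and at most 814 CPM in the other sham libraries. Tests against sham hearts are therefore given with and without this animal. Since high immune genes set it apart, fits without it are no independent support for a rise of such genes.

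Igha was close to absent in the hearts of the MI group and present in the damaged zones of most cell sheet hearts. In the border zone of the cell sheet hearts the lowest library had 1 count, the median was 125 and the highest had 402, and in that of the MI hearts the lowest had 0, the median was 5.5 and the highest had 13. Scaled to CPM, the border zone mean was 7.83 ± 6.95 (SD, n = 6) with the cell sheet and 0.307 ± 0.236 (SD, n = 6) without it, a ratio of 25.5. Of the 6 cell sheet hearts, 5 had more Igha in the border zone than any MI heart, and replicate 3, with its single count, lay within the range of the MI hearts.

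In the infarct zone of the cell sheet hearts the Igha counts were 0 at the lowest, 43.5 at the median and 92 at the highest. The MI hearts had 0, 3 and 4 counts there, so 5 of the 6 cell sheet hearts lay above all MI hearts. The means were 2.02 CPM with the cell sheet and 0.114 CPM without it, a ratio of 17.8. The heart without Igha in the infarct zone, replicate 5, had 137 counts in the border zone, and the heart with 1 count in the border zone, replicate 3, had 80 in the infarct zone. Each of the 6 cell sheet hearts thus had Igha reads in at least 1 of both zones, and their summed counts ran from 81 to 429 against 4 to 15 in the MI hearts. That these sums do not overlap was a condition of the choice of Igha and is not a finding. Because Igha was chosen by this contrast, no test is given for it.

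Away from the damage Igha was at the limit of counting. In the remote zone the cell sheet hearts had 0 to 3 counts (median 0.5), the MI hearts 0 to 6 (median 0.5) and the sham hearts other than replicate 5 had 0 to 3. A count of 3 was taken as the floor of a library, so no fold is given, and the filter on low counts left Igha out of all 3 remote zone tests. Without that filter edgeR gave adjusted p-values of 0.40 for MI against Sham, 0.51 for the cell sheet against MI and 0.58 for the cell sheet against Sham.

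In the sham hearts Igha had 0 counts in 11 of 18 libraries, and 3 or fewer in every library outside replicate 5. Sham replicate 5 had 43 to 56 counts in its 3 zones, including the remote zone, where the cell sheet hearts had at most 3. Of the 1558 Igha counts over the 54 libraries, 85.5% came from the infarct and border zones of the cell sheet hearts and 9.50% from sham replicate 5. No fold against sham hearts is given, since the cell sheet values are those that chose the gene and the sham hearts other than replicate 5 are at or under the floor.

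**Figure D1:**
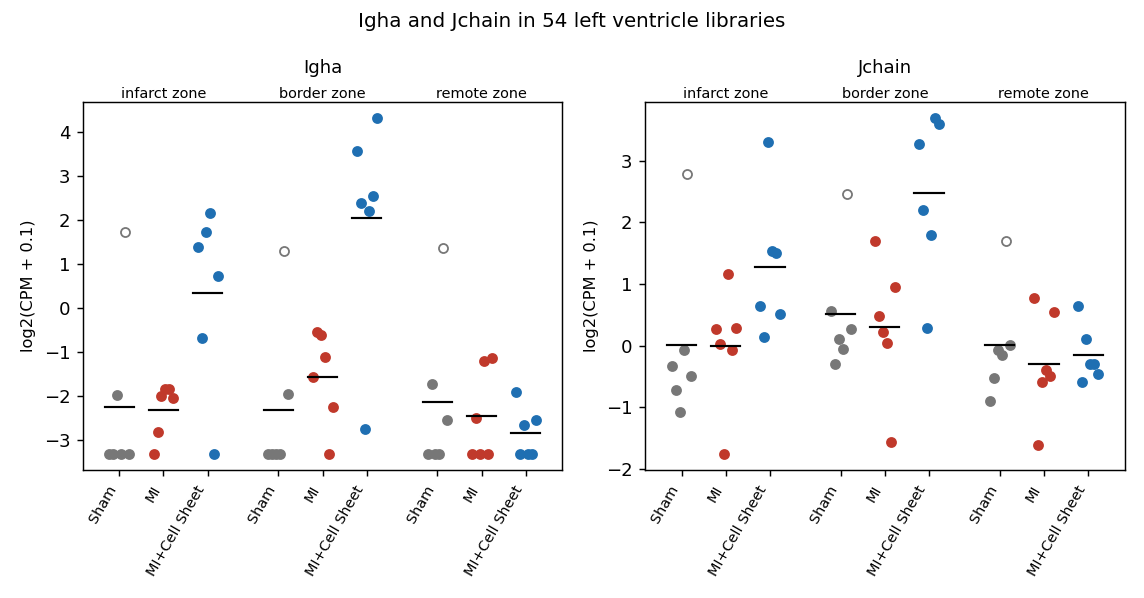
Igha (left) and Jchain (right) as log2(CPM + 0.1) on the vertical axis in each of the 54 libraries, grouped by zone and treatment, with 1 point per library, a bar for the mean of the log2 values and an open point for sham replicate 5. In the border zone 5 of the 6 cell sheet hearts lie above every MI heart for both genes, and in the remote zone the groups overlap apart from the open sham point.

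Jchain, the joining chain, was the member whose levels followed Igha most closely in the cell sheet hearts (Spearman rho 0.84 over their 18 libraries, which come from 6 animals, and 0.65 over all 54). It had 23 counts at the lowest, 171 at the median and 306 at the highest in the border zone of the cell sheet hearts, and 4, 26 and 54 in that of the MI hearts. The log2 difference was 2.35 (SE 0.62) in the border zone and 1.57 (SE 0.61) in the infarct zone, both given as a description from the contrast that chose Igha. In the border zone 5 of 6 cell sheet hearts were above all MI hearts, and in the infarct zone 3 of 6 were. In the remote zone the medians were 11 counts with the cell sheet and 10 without it, and the difference did not pass the test (log2 difference 0.01, SE 0.42, adjusted p = 0.99).

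Jchain was tested against sham hearts with edgeR. Its own values did not enter the choice of Igha, but the border and infarct zone libraries of the cell sheet hearts did. Jchain followed Igha in the cell sheet hearts (rho 0.84), so its tests in these 2 zones are no independent support. In the border zone Jchain was higher in the cell sheet hearts by 2.02 on the log2 scale (SE 0.65, adjusted p = 0.025 by edgeR), and 3 of the 6 were above all sham hearts. This call was narrow, as it was lost without sham replicate 1, 2, 3, 4 or 6 or cell sheet replicate 5 or 6 (adjusted p = 0.050 to 0.055 by edgeR). Without sham replicate 5 it grew to 2.80 (SE 0.58, adjusted p = 0.0015). Jchain was 1 of 3 members tested there, and 43.6% of all genes tested passed in this comparison, or 61.6% without sham replicate 5, where 3 of 3 passed. Of these 3, Jchain and Cd79a were higher and Mzb1 was lower (-1.68, adjusted p = 0.010 by edgeR). In the infarct zone the Jchain difference of the cell sheet hearts from sham hearts did not pass with all animals (0.98, SE 0.78, adjusted p = 0.29). Without sham replicate 5 it passed (2.34, SE 0.62, adjusted p = 0.0057 by edgeR). Mzb1 passed there too but was lower than in sham hearts (-2.26, adjusted p = 0.023), so that 2 of 2 members tested passed, in opposite directions. The background in the infarct zone was 57.9% of all genes, and 70.0% without that animal. In the remote zone 0 of 2 members tested passed in edgeR, DESeq2 or at an unadjusted p under 0.05, beside 0.00660% of all genes with all sham hearts and 0.111% without replicate 5.

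Within the cell sheet hearts, where the zones come from the same animals, Jchain was higher in the damaged zones. The remote zone counts were 9 to 27. Border minus remote zone was 2.79 on the log2 scale (SE 0.52, adjusted p = 0.0046 by edgeR with the animal as a block), higher in 6 of 6 hearts. Infarct minus remote zone was 1.52 (SE 0.45, adjusted p = 0.022), also higher in 6 of 6, and was lost without cell sheet replicate 4 (1.43, adjusted p = 0.058) or 5 (1.42, adjusted p = 0.062). All of these zone comparisons moved a large share of the transcriptome, 56.4% of genes for the border zone and 62.8% for the infarct zone, against 3 of 3 and 2 of 3 members tested. Among these members Mzb1 was lower than in the remote zone, by -0.94 for the border and -2.36 for the infarct zone. Igha had more reads in the damaged than in the remote zone in 5 of 6 hearts for each zone, which is a description, as these values chose it. The Jchain tests use the same damaged zone libraries and are no independent support either.

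In the other hearts Jchain leaned the same way in the border zone without passing the test. Border minus remote zone was 0.54 on the log2 scale in the sham hearts (SE 0.27, adjusted p = 0.17 by edgeR), higher in 6 of 6, and 0.66 in the MI hearts (SE 0.43, adjusted p = 0.28), higher in 5 of 6. Whether these differences are smaller than that of the cell sheet hearts was not tested. For the infarct zone 3 of 6 hearts were higher in either group. In the MI hearts 0 of 2 members tested (Jchain and Cd79a) passed in either zone, also with DESeq2 and at an unadjusted p under 0.05, where edgeR called 36.4% of all genes for the infarct zone and 0% for the border zone (5943 genes at an unadjusted p under 0.05, and 4651 by DESeq2). In the sham hearts 0 of 2 (Jchain and Mzb1) passed in either zone by edgeR or DESeq2 or unadjusted, beside 32.4% of all genes for the infarct and 25.7% for the border zone. The difference between zones in the effect of infarction passed for 0 of 3 members in edgeR, adjusted or not, beside 28.9% of all genes for the infarct zone and 0% for the border zone (3995 genes unadjusted). Without sham replicate 5 the count of members called was 0 in these sham and interaction fits too.

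Reads on V segments were also summed. They come from the libraries that chose Igha and in part from the same transcripts, so they are no independent support. RefSeq lists 146 V segments beside Crip1, Tmem121 and Adam6, the neighbourhood of the immunoglobulin heavy chain locus, of which 78 are in the count tables, and 146 beside Rpia and Eif2ak3, that of the kappa light chain locus, of which 102 are. These sums were formed after the values of the members had been seen and are a description with no test. Heavy chain V segments summed to 4.32 to 59.95 CPM (median 21.0) in the border zone of the cell sheet hearts and to 2.26 to 10.2 CPM (median 4.31) in that of the MI hearts. Most of the heavy chain reads lay on a single entry, Ighv. It held 1241 of 1440 counts in the border zone of cell sheet replicate 5 and 166 of 174 in that of MI replicate 1. Kappa V segments summed to 4 to 412 counts in the border zone with the cell sheet and to 0 to 29 without it. In the remote zone the kappa sums were 0 to 5 counts with the cell sheet and 0 to 4 without it.

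The heart with the highest border zone sums was cell sheet replicate 5, with 1440 heavy and 412 kappa V segment counts and the highest Jchain count of 306, while its Igha count of 137 was below those of replicates 1 and 6. In the infarct zone the highest sums were in replicate 3, with 1148 heavy and 227 kappa counts and 244 Jchain counts, beside 80 Igha counts. The other 5 infarct zones of the cell sheet hearts had 39 to 278 heavy and 1 to 42 kappa counts, so that in this zone a single heart held most of the V segment reads. The infarct zones of the MI hearts had 78 to 202 heavy and 0 to 20 kappa counts. Cell sheet replicates 2, 5 and 6, with 136, 119 and 39 heavy counts, did not exceed that range. Sham replicate 5 had 635 to 960 heavy V segment counts in its 3 zones. RefSeq types LOC103692723, in the same heavy chain neighbourhood, as a constant region, and it had 159 and 71 counts in the border zones of cell sheet replicates 1 and 6. The other cell sheet border zones had 13 (replicate 2), 0 (replicate 3), 11 (replicate 4) and 3 (replicate 5), and those of the MI hearts 0 to 5, so that replicates 3 and 5 lay within the range of the MI hearts.

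**Figure D2:**
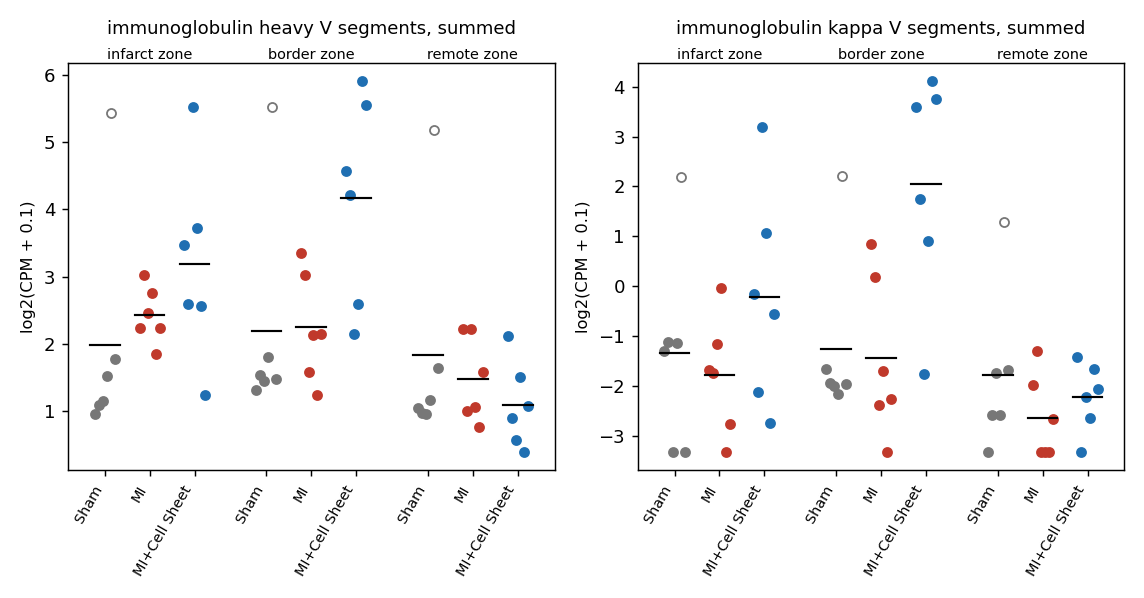
Summed levels of immunoglobulin heavy chain (left) and kappa chain (right) V segments as log2(CPM + 0.1) on the vertical axis in each library by zone and treatment, with 1 point per library, a bar for the mean of the log2 values and an open point for sham replicate 5. The highest cell sheet points are 59.95 CPM for heavy and 17.2 CPM for kappa segments in the border zone, and sham replicate 5 stands above the other sham hearts in every zone.

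The 3 genes of the B cell surface had overlapping levels in the cell sheet and MI hearts. Cd79a, the first receptor subunit, had a median of 20.5 counts (14 to 38) in the border zone of the cell sheet hearts and 17 (14 to 30) in that of the MI hearts. Its log2 difference was 0.04 (SE 0.27) in the border zone and 0.15 (SE 0.57) in the infarct zone, where the medians were 25.5 counts in both groups. Both are descriptions from the contrast that chose Igha.

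Cd79b, the partner subunit, had medians of 7.5 counts with the cell sheet and 4.5 without it in the border zone, and 9.5 and 10 in the infarct zone. Ms4a1, the CD20 gene, had medians of 1.5 and 2.5 counts in the border zone and 2.5 and 3 in the infarct zone. These medians hide the infarct zone of cell sheet replicate 3, with 78 Cd79a, 37 Cd79b and 28 Ms4a1 counts. The highest MI hearts had 39, 17 and 7 there. In that zone 1, 1 and 2 of the 6 cell sheet hearts were above all MI hearts for these genes. Below all MI hearts were 1, 2 and 0, and these values too are descriptions. Ms4a1 was at 0 in 21 of 54 libraries and above the floor of 3 counts in 14, which leaves no room to show a difference at this depth. It passed the filter in none of the 17 fits of the report, and Cd79b passed it in 1.

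Among the other genes of these cells, Pax5, the factor that holds B cell identity, had a median of 7 counts in the border zone with the cell sheet and 3 without it. Tnfrsf17, the survival receptor of plasma cells, had 5 and 6.5. Pou2af1, the coactivator of the Oct factors in B cells, had 9.5 and 2.5. For each of these genes the 6 cell sheet hearts overlapped the 6 MI hearts.

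**Figure D3:**
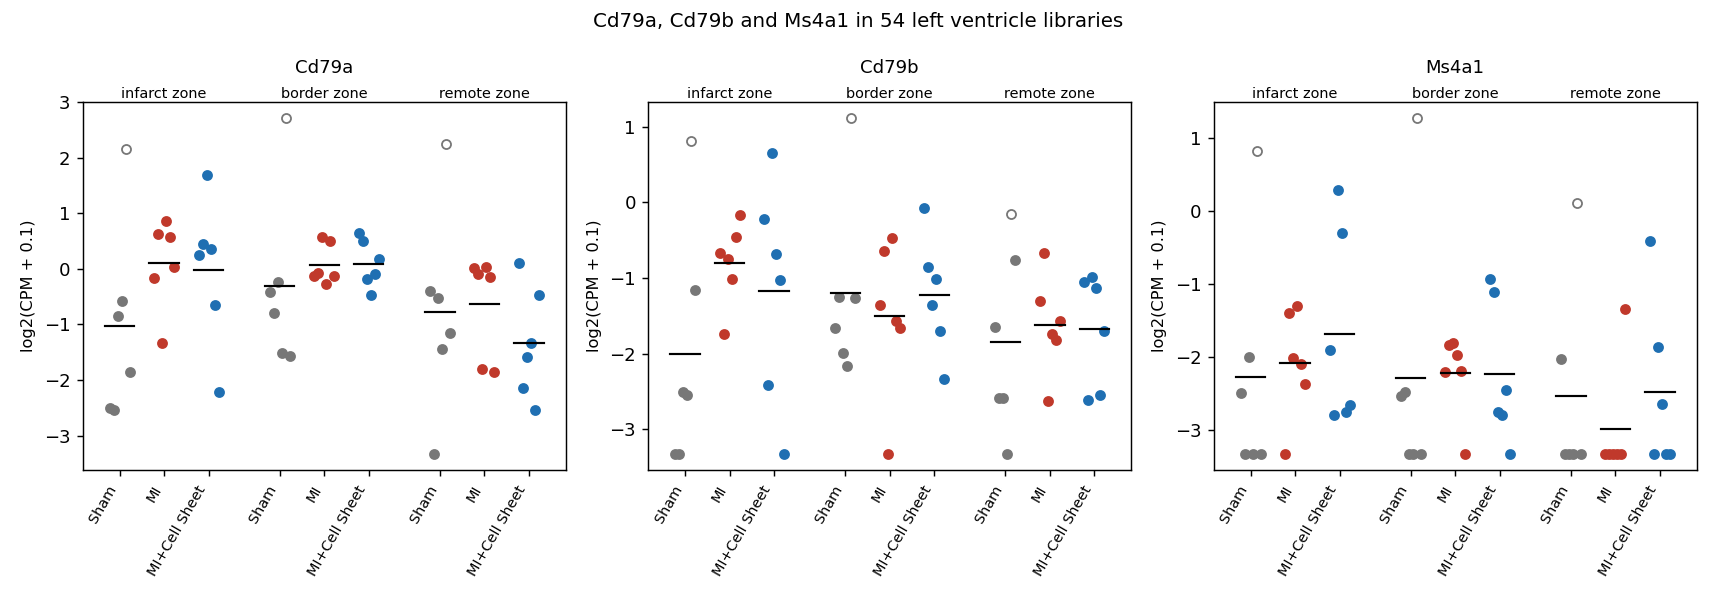
Cd79a, Cd79b and Ms4a1 as log2(CPM + 0.1) on the vertical axis in each library by zone and treatment, with 1 point per library, a bar for the mean of the log2 values and an open point for sham replicate 5. The cell sheet and MI points overlap in every zone, and the open point is the highest sham value in each panel.

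Few genes of the B lineage lists were called in the contrast of the cell sheet with MI, where calls are counted as a description. In the border zone 18.0% of all genes tested passed. Of the 14 receptor and co-receptor genes tested, 0 rose and 1 fell, and of the 11 identity genes 1 rose (Ebf1, an early B cell factor that is also made by other cells, 0.70) and 1 fell (Cd40, -0.92). Of the 19 plasma cell and secretory genes 0 fell, and Jchain and Mzb1, which are among them, are described as members without a call. The median log2 difference of the 3 lists was -0.17, -0.12 and -0.01, beside 0.00 over all genes. Of 10 genes for the switch to immunoglobulin A, the survival of plasma cells and antibody transport, 0 rose and 1 fell (Cxcr4, -0.68). In the infarct zone edgeR called 0% of all genes (1341 unadjusted, 85 by DESeq2) and 0 genes of these lists, of which 3 were under an unadjusted p of 0.05.

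In the remote zone, where 17.1% of all genes passed, the lists had few calls and their medians lay below 0. Of 12 receptor genes 2 fell, with a log2 difference of -0.54 for Lyn and -1.252 for Cd22, and of 10 identity genes 1 fell (Fcmr, the receptor for immunoglobulin M, -0.92), with 0 rising in either list. Both counts are no larger a share than that of all genes. Of 19 plasma cell and secretory genes 1 rose, the member Mzb1, and 1 fell (Cd38, a surface enzyme, -0.79). Of 9 genes for the switch to immunoglobulin A, survival and transport 1 fell (Tgfb1, which drives the switch, -0.90). The list medians were -0.56, -0.75, -0.30 and -0.44 in this order, beside 0.01 over all genes. Lists of other cells lay below 0 as well, with medians of -0.82 for the myeloid (1 of 10 fell), -0.51 for the T cell (1 of 7 rose and 1 fell), -0.88 for the blood and -1.23 for the mesothelial list. The summed myeloid level was 429 to 3256 CPM with the cell sheet (median 529.6) and 912 to 3198 CPM without it (median 2036). The part of these cells in the B lineage values was not tested.

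Fat cell genes were high in several of the libraries with the most Igha, in the border zone more than in the infarct zone. Adipoq, the adiponectin gene, had 0 to 4736 counts in the border zone of the cell sheet hearts (median 1970) and 0 to 319 in that of the MI hearts (median 2). Its Spearman rho with Igha was 0.87 over the 18 cell sheet libraries, which share animals and depth, and 0.57 over all 54. Cell sheet replicate 3, with 1 Igha count in the border zone, had 0 Adipoq counts there, and replicate 5, with 0 Igha counts in the infarct zone, had 0 there too. Replicate 6 had 27 Igha counts and 0 Adipoq counts in the infarct zone, and replicate 4 had 103 Igha counts and 42 Adipoq counts in the border zone. The infarct zone of MI replicate 4 had 784 Adipoq counts and 4 Igha counts.

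Over the whole list of 10 fat cell markers, 4 of 8 tested rose in the border zone with the cell sheet (log2 difference 6.34 for Plin1, which coats lipid droplets, 4.92 for Cidec, 4.77 for Pck1 and 0.96 for Lipe), and 0 fell, beside 18.0% of all genes. The summed level of the list was 543 to 1426 CPM with the cell sheet and 318 to 1103 CPM without it, and Adipoq and Plin1 were at 0 in 1 of the 6 border zones with the cell sheet. In the infarct zone edgeR called 0 of 6 fat cell markers tested and 0% of all genes (1 marker under an unadjusted p of 0.05). The median log2 difference of these markers was -0.18. The summed level there was 160 to 731 CPM with the cell sheet (median 349) and 301 to 1391 CPM without it (median 575). This sum does not follow Adipoq, as sham hearts had 468 to 1706 CPM there with 0 or 1 Adipoq counts. Adipoq had 449, 38, 326, 225, 0 and 0 counts in the infarct zones of cell sheet replicates 1 to 6. Those of MI replicates 1 to 6 had 16, 6, 0, 784, 5 and 1. Plin1 had 374, 23, 158, 223, 0 and 0 counts with the cell sheet and 2, 1, 1, 229, 0 and 2 without it. Fabp4, another gene of the list, is also made by capillary cells of the heart. In sham replicate 5, where Igha had 43 to 56 counts, Adipoq had 0 to 4. The part of fat tissue in the Igha result was not tested. In bulk tissue more cells of a type and more RNA per cell cannot be told apart.

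**Figure D4:**
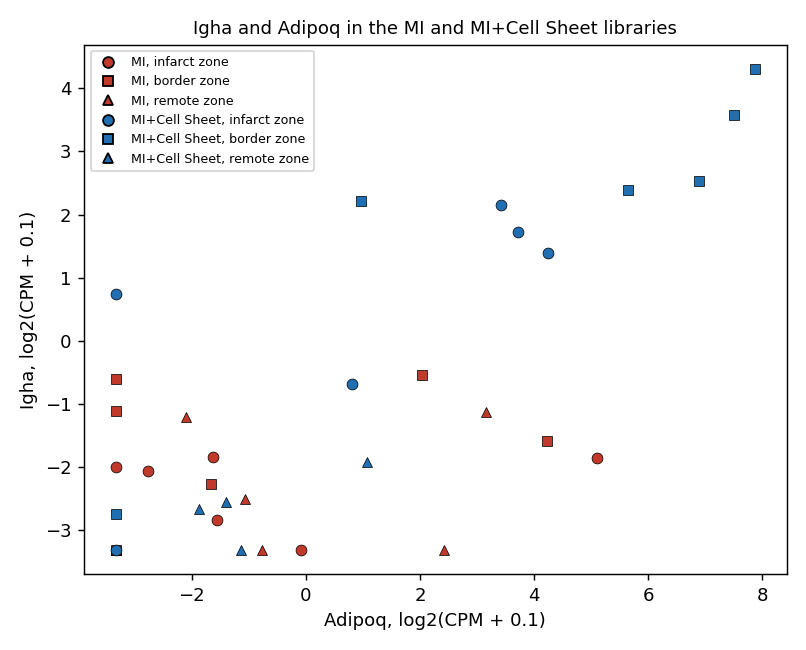
Igha against Adipoq, both as log2(CPM + 0.1), in the 36 libraries of the MI (red) and MI+Cell Sheet (blue) hearts, with circles for the infarct, squares for the border and triangles for the remote zone. The cell sheet border zones with the most Adipoq (232.9 and 181.7 CPM) have the most Igha (19.8 and 11.8 CPM), and no MI library is above 0.58 CPM Igha.

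Mzb1, the chaperone, was lower in MI than in sham hearts in every zone. Its median was 24 counts in the remote zone of sham hearts (13 to 71), 6 in that of MI hearts (3 to 15) and 23.5 in that of cell sheet hearts (5 to 48). Mzb1 fell in the MI hearts against sham, with a log2 difference of -2.51 (SE 0.64, adjusted p = 0.0072 by edgeR) in the infarct, -2.37 (SE 0.69, adjusted p = 0.018) in the border and -2.09 (SE 0.52, adjusted p = 0.012) in the remote zone. Without sham replicate 5 the differences were -2.70, -2.62 and -2.27 (adjusted p = 0.0021, 0.0024 and 0.0016 by edgeR). With all sham hearts Mzb1 was the one member that passed, of 3 tested in the infarct and border zones and 2 in the remote zone. Of all genes 49.9% passed in the infarct, 41.7% in the border and 25.8% in the remote zone. Jchain did not pass, at -0.68, -0.31 and -0.44 in the 3 zones with all sham hearts (adjusted p = 0.46, 0.70 and 0.57 by edgeR) and at 0.78, 0.49 and 0.21 without replicate 5 (adjusted p = 0.16, 0.39 and 0.73). Without MI replicate 3 Mzb1 did not pass the filter in the infarct zone and was not tested.

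In the border zone Mzb1 had 8 counts at the lowest, 19.5 at the median and 22 at the highest with the cell sheet, and 1, 6 and 13 in the MI hearts. The log2 difference was 0.97 (SE 0.51), and 4 of 6 cell sheet hearts were above all MI hearts, the same direction as Igha and Jchain. The infarct zone medians were 3.5 counts with the cell sheet (2 to 30) and 5 without it (1 to 13), and the ratio of mean CPM was 1.44, with 1 of 6 hearts above all MI hearts. These values are descriptions from the contrast that chose Igha.

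With the cell sheet Mzb1 was higher than in MI hearts in the remote zone by 1.57 (SE 0.50, adjusted p = 0.047 by edgeR), and leaving out any 1 library other than cell sheet replicate 1 took the adjusted p above the threshold (0.052 to 0.12), as did leaving out the filter (0.076) or the TMM factors (0.061), the block for the replicate number (0.15) or a single fit over 54 libraries (0.10). Within the cell sheet hearts it was lower than in the remote zone in 5 of 6 hearts for either damaged zone, opposite to Jchain, with a log2 difference of -2.36 (SE 0.80, adjusted p = 0.034 by edgeR) for the infarct and -0.94 (SE 0.32, adjusted p = 0.037) for the border zone. These calls were lost without cell sheet replicate 2, 3, 4 or 5 in both zones (adjusted p = 0.089 to 0.094 for the infarct and 0.070 to 0.092 for the border zone) and without replicate 6 in the border zone (0.052). The border zone call was also lost without the animal block (-1.02, adjusted p = 0.080), the filter (0.065) or the TMM factors (0.075). Sham replicate 5, in which the other 5 members were highest among sham hearts, had 5 to 13 Mzb1 counts, below the highest of the other sham libraries (71).

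Mzb1 lies beside Prob1 in the RefSeq annotation, and the count setting for strand is not given in the sources used here, so reads of the neighbours may not be separable. In the remote zone Prob1 had 1120 to 1562 counts in sham hearts other than replicate 5, which had 685. There it had 557 to 928 in MI hearts and 475 to 1401 with the cell sheet. In the border zone it had 503 to 1185 counts in sham and 183 to 616 in MI hearts. Its infarct zone counts were 443 to 1071 in sham and 203 to 680 in MI hearts. The rho of Prob1 with Mzb1 was 0.80 over the 54 libraries and 0.87 over the 18 cell sheet libraries. That between Mzb1 and Igha was -0.39 over the 54. The part of Prob1 in the Mzb1 result was not tested.

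The comparison of MI with Sham hearts for the B cell genes turned on sham replicate 5. With all sham hearts the Cd79a log2 difference was 0.13 (SE 0.83, adjusted p = 0.91 by edgeR) in the infarct and -0.61 (SE 0.74, adjusted p = 0.52) in the border zone. Without that animal Cd79a was higher in MI hearts by 1.98 (SE 0.57, adjusted p = 0.0096 by edgeR) and 1.05 (SE 0.36, adjusted p = 0.024). That animal had the most Cd79a of the sham hearts, 76 to 134 counts in its 3 zones. Leaving it out thus lowers the sham level, and these calls are no independent support for a rise. In the infarct zone the Cd79a counts were 6 to 39 in the MI hearts and 1 to 8 in the sham hearts other than replicate 5, which had 76. Of these 5 sham hearts 2 were above the floor of 3 counts, so Cd79a passed the filter there through the MI hearts. Against the cell sheet border zone the difference was -0.57 (SE 0.73, adjusted p = 0.54) with sham replicate 5 and 1.06 (SE 0.37, adjusted p = 0.026) without it. Within the cell sheet hearts, which do not involve sham, Cd79a was higher in the border than in the remote zone in 6 of 6 hearts. The log2 difference was 1.54 (SE 0.45, adjusted p = 0.022 by edgeR). This call was lost without cell sheet replicate 2, 3 or 5 (adjusted p = 0.052 to 0.055). The remote zone counts were 1 to 18 (median 4.5), near the floor of 3, against 14 to 38 in the border zone. These border zone libraries are among those that chose Igha.

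For MI against Sham without replicate 5, 2 of 3 members passed in either damaged zone, Cd79a as higher and Mzb1 as lower. Of all genes 64.8% (infarct) and 60.8% (border) passed there. In the remote zone 1 of 2 members passed, Mzb1 as lower, where 46.5% of all genes did. The B lineage lists also shifted without that animal, which was set apart by high immune genes, so these shifts are no independent support either. Of 13 receptor and co-receptor genes tested, 3 rose in the infarct zone with all sham hearts and 11 without replicate 5, and in the border zone 2 and 12. The genes with the smallest p-values were Fcgr2b, the inhibitory Fc receptor (3.72 in the infarct zone), Lyn (1.13), Btk (2.53) and Cd22 (2.46), and of these Fcgr2b, Lyn and Btk are also made by macrophages. Of 10 identity genes 0 rose with all sham hearts in the infarct zone (2 under an unadjusted p of 0.05 in edgeR) and without replicate 5, 5 rose, led by Pou2f2 (2.92), Cd180 (3.65) and Cd37 (2.45), and 1 fell (Fcer2, the immunoglobulin E receptor of B cells). The median of the receptor list was 0.66 with and 1.89 without that animal, beside -0.02 and 0.04 over all genes.

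The myeloid list, whose level is among the values that set sham replicate 5 apart, moved with these genes. All 10 of its genes rose in the infarct zone of MI hearts without sham replicate 5 and 4 with it, and its summed level was 2578 to 11963 CPM in the infarct zone of MI hearts. In the cell sheet hearts where 56.4% of all genes passed between the border and the remote zone, all 10 were higher in the border zone, beside 11 of 14 receptor genes, 6 of 11 identity genes (1 fell) and 15 of 19 plasma cell and secretory genes (4 fell). The calls of the identity list are close to the share of all genes. Members of those lists that rose there include Sdc1 (2.25), Derl3 (1.24) and Fkbp11 (1.15) of the secretory list and Btk (1.62), Syk (1.65) and Cd37 (1.74) of the others. The 4 secretory genes that fell there include Mzb1 (-0.94). Of 10 genes for the switch to immunoglobulin A, survival and transport 7 rose there, Il10 (5.53), Cxcl13 (3.01) and Tnfsf13, a survival factor for plasma cells (1.14), among them. How much of these list changes comes from myeloid cells was not tested.

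**Figure D5:**
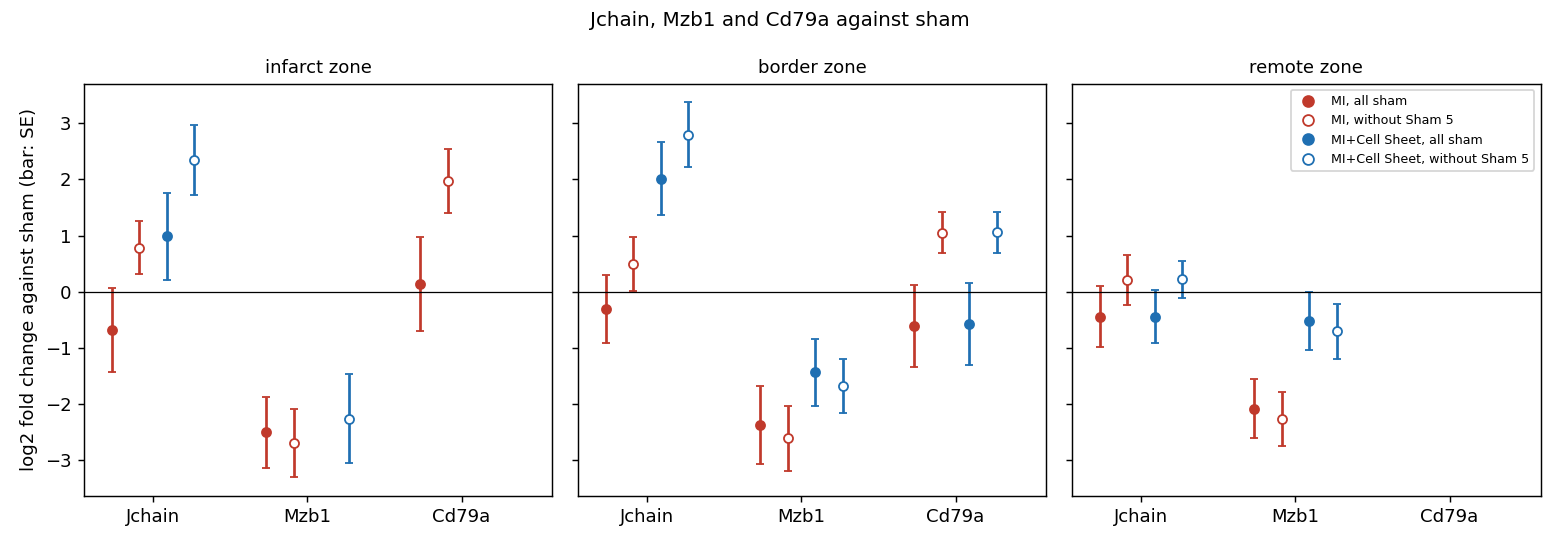
Log2 fold change against sham hearts with its SE (bar) for Jchain, Mzb1 and Cd79a in the infarct, border and remote zones, in MI (red) and MI+Cell Sheet (blue) hearts, with all sham hearts (filled) and without sham replicate 5 (open), where the gene passed the filter. Cd79a in the border zone lies below 0 with all sham hearts and above 0 without that animal, while Mzb1 lies below 0 in every fit shown.

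The genes whose levels were most alike to Igha over the 54 libraries, among 14532 genes with a mean log2 CPM of at least 0, were Virma (Spearman rho 0.80), Ndnf (0.78), Dnajb14 (0.77), Kif21b (0.77), Uvrag (0.76), Htt (0.76), Cad (0.76) and Fasn, the fatty acid synthase (0.76). Those most alike to Ms4a1 were Utp6 (0.74), Ggt7 (0.73), Septin6 (0.73), Hnrnpa1 (0.73), Gfpt1 (0.72), Fam168b (0.72) and Map4k1 (0.72). Igha was at 0 in 20 of the 54 libraries and Ms4a1 in 21, so both rankings rest in part on tied values, and the libraries share animals, zones and treatment.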

How the data were processed

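Poly(A) RNA of rat left ventricle was sequenced in paired-end reads, and the authors aligned it with STAR to mRatBN7.2 and deposited raw counts per gene, 1 table per library. The aligner and build come from the study's methods and the submitters' processing notes, while no source used here gives the counting program or whether it used strand. The 5 summary lines, which name no gene, held 17.0% to 42.8% of a table and were left out. No 2 libraries of a group were alike within sampling noise (lowest chi-square per degree of freedom 7.97).

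The members and gene lists were chosen with earlier results of these data known. Groups follow the labels. Tests were edgeR 4.0.16 quasi-likelihood F tests in R 4.3.3 (TMM factors, default expression filter, Benjamini-Hochberg over all genes, threshold 0.05) on the libraries of the groups compared. Zones within a treatment and the interaction had the animal as a block, since their libraries come from the same animal. Members with too few counts to pass the filter were not tested. Levels are CPM with TMM factors over all 54 libraries. For the cell sheet against MI in the infarct and border zones, which chose Igha, ratios of mean CPM and fitted log2 differences are given with no test. The named genes were the 7 members, up to 4 genes with the smallest adjusted p per list and comparison, the gene next to Igha, and the 8 genes most alike to Igha and to Ms4a1 in Spearman rho. A few genes that these rules name are not reported here. Pax5, Tnfrsf17, Pou2af1, Adra2a, Prob1, Adipoq, Fcer2, Cd3e, Cxcl13, Ighv and LOC103692723 were named after their values had been seen.

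Alternatives were DESeq2 1.42.0, no filter, plain library sizes, a block for the replicate number, 1 fit over all 54 libraries, and each library or animal left out. The scripts were tested on simulated data. Between 12699204 and 23397754 counts on genes per library leave genes with a few counts, such as Ms4a1, without a measurable difference.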

Additional observations from a re-analysis of the deposited data

Results flagged for a closer look

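Among 54 sets of 6 libraries (6 members in 9 groups), 19 had a library whose gap to its nearest neighbour was, as a share of the range, above Dixon's limit for 6 samples. Chance alone would exceed this limit in about 1 of 20 sets of normally distributed values. That rate need not hold here, since many of these CPM values rest on few counts. In 14 of the 19 the library was sham replicate 5. Its Igha level was 2.45 CPM in the remote, 2.34 in the border and 3.21 in the infarct zone, and its Jchain level was 3.14, 5.40 and 6.81 CPM. Its Cd79a level was 4.62, 6.41 and 4.35 CPM in the same order, and its Ms4a1 level 0.97, 2.30 and 1.66 CPM. Its Cd79b level stood apart at 2.06 CPM in the border and 1.66 CPM in the infarct zone. The other sham hearts had at most 0.20 CPM Igha, 1.38 CPM Jchain, 0.75 CPM Cd79a and 0.15 CPM Ms4a1.

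The other 5 were single libraries. Jchain was 9.74 CPM in the infarct zone of cell sheet replicate 3, with the next heart at 2.79 CPM, and this library also had the most V segment reads of its group. Mzb1 was 1.74 CPM in the infarct zone of cell sheet replicate 6, with the next at 0.25 CPM. Ms4a1 was 0.65 CPM in the remote zone of cell sheet replicate 1, with the next at 0.17 CPM, 0.30 CPM in the remote zone of MI replicate 6, where the others were at 0, and 0 CPM in the border zone of MI replicate 6, with the next at 0.12 CPM.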

How the results depend on the processing

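The Igha ratio of mean CPM between cell sheet and MI hearts was 4.67 on the log2 scale in the border and 4.15 in the infarct zone, 4.73 and 4.16 without TMM factors, 4.68 and 4.15 with DESeq2 size factors (added after seeing the data), and 4.15 to 4.96 and 3.78 to 4.42 with single libraries left out. Of members called, the cell sheet against MI in the remote zone gave 1, and 0 without the filter, without TMM factors, with the replicate block or in 1 fit over 54 libraries (0 to 1 with libraries left out). The cell sheet against Sham gave 0 in the infarct zone, 1 in 1 fit over 54 libraries and 0 to 2 with libraries left out, and in the border zone 1, 2 with DESeq2 and 0 to 3. MI against Sham gave 1 in both damaged zones, 0 to 2 in the infarct and 1 to 2 in the border zone with libraries left out. In the cell sheet hearts the counts were 2 (0 to 2) for the infarct and 3 (1 to 3) for the border zone. For Cd79a the direction turned with the replicate block in the border zone, to 0.43 for MI and 0.47 for the cell sheet against Sham, and with single libraries left out the values ran from -0.11 to 1.98 (MI, infarct), from -0.83 to 1.05 (MI, border) and from -0.79 to 1.06 (cell sheet, border). The causes were not tested. Replicate numbers across treatments name different animals, and deviations of same-numbered libraries correlated between -0.76 and 0.63, so the block is no pairing there. Beside the values above, it took away the call of Mzb1 in the remote zone (1.52, adjusted p = 0.15 by edgeR) and changed no other call. In the zone comparisons, where the animal block is part of the design, leaving it out lost the call of Mzb1 in the border zone of the cell sheet hearts (2 members in place of 3) and changed no other.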
